A study of Homo sapiens with 2 samples.

Results

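The interferon-stimulated genes BST2, IFITM2, IFITM1, IFI6, IFIT3, ISG15, IRF1 and IRF7 were examined in single cells of Nalm-6, an established human cell line grown from an acute lymphoblastic leukemia of B-cell precursors. These 8 genes were chosen by symbol, and each matched 1 of the 32738 gene entries in both count matrices. One library came from cells with an inducible ETV6-RUNX1 construct (also written TEL-AML1 in the labels), and the other from cells with an inducible luciferase construct, called LUC control. Both lines carry Tet-On constructs, and both received 500 ng/ml doxycycline for 24 h, so the drug itself is shared by the 2 groups. The labels do not say whether either line is a single clone. Each group is 1 library, so every difference below is between 2 libraries, has no replicate check and was not tested.

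Interferons are secreted signals that cells release on sensing viruses. Type I interferons bind the receptor chains IFNAR1 and IFNAR2, whose kinases JAK1 and TYK2 start a signal to the nucleus. There a complex that holds STAT2 and IRF9 binds the interferon-stimulated response element (ISRE) in promoters of antiviral genes. Interferon gamma acts instead largely through another promoter element, the gamma-activated site (GAS). Many of these genes also keep a basal level in cells that receive no interferon.

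The promoters of the members are shown to locate ISRE matches. The members were chosen as interferon-stimulated genes, and the ISRE is an element through which such genes respond. Its presence was therefore likely from the choice of genes and is no independent result. RefSeq promoter windows (GRCh38.p14, from 250 bases before to 50 after a gene's start) were found for 6 of the 8 members, BST2, IFI6, IFIT3, ISG15, IFITM1 and IRF1, and IFIT3 has 2 windows. IFITM2 and IRF7 had no entry. Stretches around the matches are printed 5′ to 3′ on the gene's strand, with the ISRE core in capitals (GAAA, any 2 bases, GAAA, or on the other strand TTTC, any 2 bases, TTTC), and for IRF1 the GAS core TTCNNNGAA in capitals. Overlapping matches run together as 1 stretch of capitals.
BST2, chr19:17405725-17405780, minus strand: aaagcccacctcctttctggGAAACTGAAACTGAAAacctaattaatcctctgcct
IFITM1, chr11:313980-314063, plus strand: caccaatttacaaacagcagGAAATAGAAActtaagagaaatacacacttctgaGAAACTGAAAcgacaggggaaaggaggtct
IFI6, chr1:27672256-27672368, minus strand: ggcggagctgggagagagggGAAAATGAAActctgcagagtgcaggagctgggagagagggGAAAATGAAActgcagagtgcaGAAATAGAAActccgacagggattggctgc
IFIT3 start 1, chr10:89327821-89327904, plus strand: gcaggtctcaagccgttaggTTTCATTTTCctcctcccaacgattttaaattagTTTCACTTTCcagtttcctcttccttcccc
IFIT3 start 2, chr10:89332415-89332507, plus strand: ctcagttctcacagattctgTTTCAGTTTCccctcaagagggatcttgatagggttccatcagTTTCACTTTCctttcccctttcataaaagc
ISG15, chr1:1013364-1013419, plus strand: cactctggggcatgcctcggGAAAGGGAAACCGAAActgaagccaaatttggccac
IRF1, chr5:132490869-132490917, minus strand: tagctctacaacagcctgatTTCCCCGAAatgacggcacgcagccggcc

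The ISRE core was found in 5 of these 6 genes, and each of the 5 had at least 2 matches in a window. Over all 35116 promoter windows of the same length, 3.57% held it on either strand. This is a share of windows, not of genes, and a gene can have more than 1 window. In ISG15 and in BST2 the 2 matches overlap, starting 113 and 107 bases before the start in ISG15 and 130 and 124 bases before it in BST2. IFI6 has 3 matches. IRF1 was the exception, with no ISRE match in the window and a GAS match 124 bases before the start. The GAS core was also found in BST2 and IFITM1, against 7.66% of all windows, and in each of these an ISRE match overlaps it; BST2 has a further GAS match 58 bases before the start. The RUNX core TGTGGT was found in IFIT3 (start 2) and IFITM1, against 13.1% of all windows. The letters CCGGAAG, an ETS core, were found in 0 of the 6 genes, against 10.3% of all windows and 27.6% of measured genes. A match describes letters in a window, not a bound site.

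Among the 46 other interferon-stimulated genes listed, 25 of 37 with a promoter entry also held the ISRE core. Transcripts were counted by unique molecular identifiers (UMIs) and scaled to CPM, the count per 1e+06 UMIs of a library. A gene was called measured when either library reached 10 CPM. Of 4642 measured genes with a promoter entry, 178 held the ISRE core. Their median log2 ratio of ETV6-RUNX1 over LUC control was -0.02, against -0.05 for those without it. Of the 178 genes, 6 (3.37%) had a log2 ratio of 0.32 or more, against 1.65% of all measured genes, and 4 (2.25%) one of -0.32 or less, against 3.31%. This size is the smaller threshold below. The 1.65% and 3.31% cover all 5954 measured genes, with or without a promoter entry, and the same shares over the 4642 are not given here. The 178 genes include members, with IFIT3 among the 6 and BST2 among the 4.

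Values below are UMIs summed over kept cells and expressed as CPM, with exact 95% intervals that cover counting error only. Cells were kept when they had at least 1000 detected genes and no more than 10% of their UMIs on MT- genes. The kept sets were 2267 of 2503 barcodes with 43941536 UMIs in the ETV6-RUNX1 library, and 1870 of 2203 barcodes with 42762188 UMIs in the LUC control library. The libraries shared 7 kept barcodes. ETV6 was at 10.1 CPM with ETV6-RUNX1 and 6.95 CPM in LUC control, and RUNX1 at 33.8 and 34.0 CPM; whether reads of the construct were assigned to either gene is not known here. The 9 matched of 10 B-precursor markers were all measured and summed to 3147 CPM with ETV6-RUNX1 and 4172 CPM in LUC control, with 5 ratios above 0 and 4 below. PAX5 (101 and 89.1 CPM) and RAG1 (23.8 and 16.6 CPM) were higher with ETV6-RUNX1, and IGLL1 (1126 and 1861 CPM), VPREB1 (718 and 1058 CPM) and CD79A (135 and 164 CPM) were lower. The part of this difference in the members' values was not tested. Markers of other cell types summed to 223 CPM with ETV6-RUNX1 and 232 CPM in LUC control for plasmacytoid dendritic cells, the main producers of type I interferon. This sum is nearly all TCF4 and PLD4, which B-lineage cells also express, and CLEC4C, GZMB and NRP1 were at 0. The sums were 13.1 and 12.1 CPM for myeloid cells (mainly CST3; S100A8 and S100A9 at 0), 4.71 and 6.27 CPM for T and NK cells (mainly NKG7; CD3D and CD3E at 0), and 0.0910 and 0.281 CPM for erythroid cells and megakaryocytes (HBB at 0). For epithelial cells and fibroblasts the sums were 68.4 and 66.8 CPM, mainly PDGFRA, with EPCAM and KRT8 at 0.

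**Figure D1:**
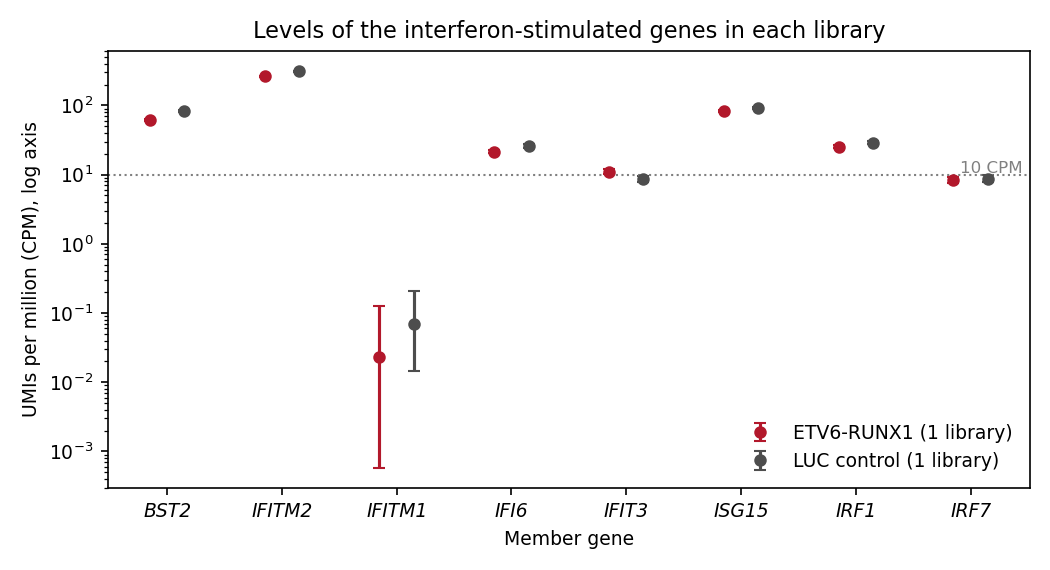
Level of each member in CPM (log axis) in the ETV6-RUNX1 library (red, left of each pair) and the LUC control library (grey, right), with exact 95% counting intervals. IFITM1 rests on 1 and 3 UMIs, and the dotted line marks 10 CPM.

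Most members were slightly lower with ETV6-RUNX1, and IFIT3 was higher. Of the 6 measured members, 5 had a log2 ratio below 0, as did 63.8% of the 5954 measured genes. The members below the floor, IFITM1 and IRF7, have intervals that hold 0. BST2 passed the smaller threshold on the lower side, as did 3.31% of measured genes, and IFIT3 on the higher side, as did 1.65%. IFIT3 counts as measured only through the ETV6-RUNX1 library, where it was higher. None of the members at 10 CPM or more reached 1.5-fold, against 0.655% of measured genes lower and 0.185% higher. The median over the 8 members was -0.21, and -0.04 over all measured genes. The counting interval lay below 0 for 5 members and above 0 for 1, against 31.9% and 13.0% of measured genes. Counts of so few members were not tested against these shares.

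The membrane proteins that act against viruses at the cell surface and in endosomes were the first group. BST2 (ENSG00000130303), or tetherin, which holds budding virions at the cell membrane, was at 62.0 CPM with ETV6-RUNX1 and 81.9 CPM in LUC control. Its log2 ratio was -0.40 (-0.47 to -0.33), or 1.32-fold lower, and 104 of the 5954 measured genes had a ratio as low or lower. This was the lowest ratio of the 6 members at 10 CPM or more. IFITM2 (ENSG00000185201), a protein that hinders the fusion of viruses with endosomal membranes, was at 265 CPM with ETV6-RUNX1 and 312 CPM in LUC control (-0.24, -0.27 to -0.20). Its paralogue IFITM1 (ENSG00000185885), which acts mainly at the cell surface, was close to absent. It had 1 UMI with ETV6-RUNX1 and 3 UMIs in LUC control, a log2 ratio of -1.62 with an interval of -7.34 to 2.01, so that no direction can be read. The third gene of this cluster, IFITM3, was also low, at 0.364 CPM with ETV6-RUNX1 and 0.538 CPM in LUC control. These 3 genes are near-identical in part: of the distinct 50-base stretches in IFITM2 transcripts (GENCODE release 29), 21.6% also occur in IFITM1 and 12.9% in IFITM3. The sources used here do not say how shared reads were counted, so the values of the IFITM genes are uncertain to that extent.

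The antiviral effectors inside the cell went in both directions. ISG15 (ENSG00000187608), a ubiquitin-like protein that is attached to other proteins, was at 83.6 CPM with ETV6-RUNX1 and 91.3 CPM in LUC control. Its log2 ratio of -0.13 (-0.19 to -0.06) lay just below the lower quartile of all measured genes (-0.13, with a median of -0.04), and 1465 of them had a ratio as low or lower. IFI6 (ENSG00000126709), a small membrane protein with antiviral activity, was at 21.5 CPM with ETV6-RUNX1 and 25.9 CPM in LUC control (-0.27, -0.40 to -0.14). IFIT3 (ENSG00000119917), a partner of the RNA-binding protein IFIT1, was the member with the opposite sign. It was at 11.0 CPM with ETV6-RUNX1 and 8.65 CPM in LUC control, from 485 and 370 UMIs, a log2 ratio of 0.35 (0.15 to 0.55). It passed the 10 CPM floor only through the ETV6-RUNX1 library, where it was higher. Of the measured genes, 78 had a ratio as high or higher.

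Both transcription factors of the group were at modest levels and had small ratios. IRF1 (ENSG00000125347), which activates interferon-responsive and antigen-presentation genes, was at 25.4 CPM with ETV6-RUNX1 and 28.95 CPM in LUC control (-0.19, -0.31 to -0.07). IRF7 (ENSG00000185507), a factor needed for strong type I interferon production, was below 10 CPM in both libraries, at 8.44 CPM with ETV6-RUNX1 and 8.77 CPM in LUC control. Its interval held 0 (-0.05, -0.27 to 0.16). With TMM scaling, median-of-ratios scaling or totals without ribosomal protein and mitochondrial genes, the median of all measured genes moved up by 0.04 to 0.05. Each of these 3 scalings moves every gene by one amount, smaller than the ratio of any member. The signs of the 8 members therefore could not change, and this is no check of them.

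**Figure D2:**
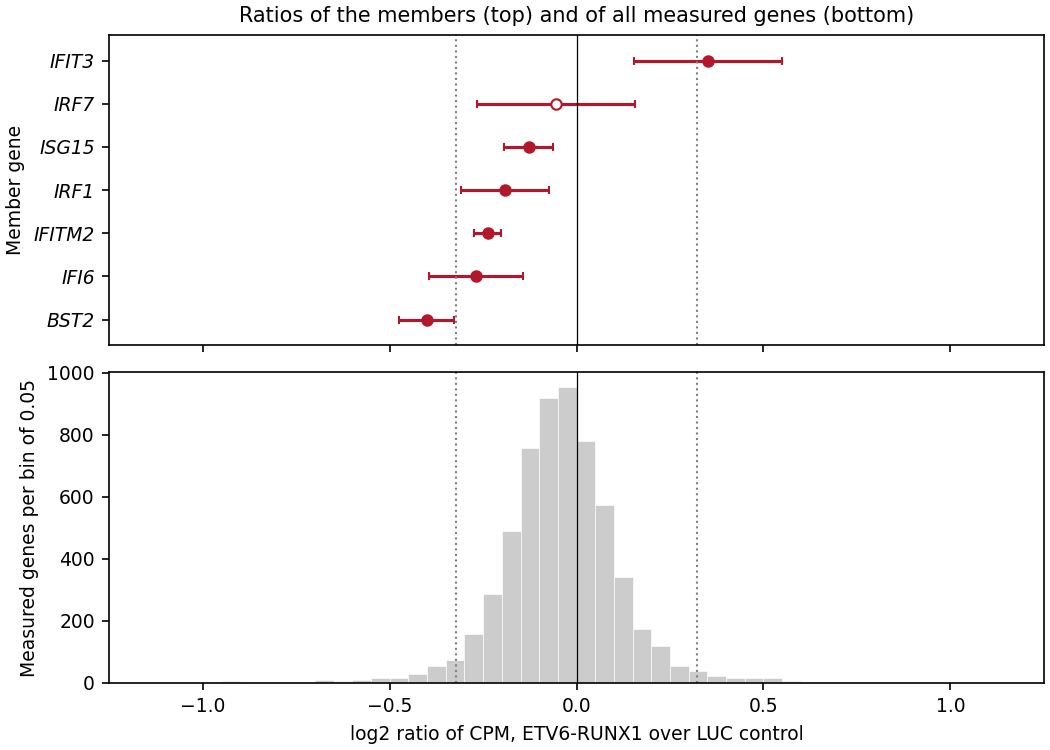
Top, log2 ratio of ETV6-RUNX1 over LUC control for 7 members with 95% counting intervals (open circle, below 10 CPM in both libraries; IFITM1 not drawn). Bottom, the ratios of all 5954 measured genes; dotted lines mark log2 ratios of -0.32 and 0.32, which BST2 and IFIT3 pass.

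The share of cells with a UMI followed the summed levels. Cells were thinned to 8700 UMIs each, which left 2043 ETV6-RUNX1 cells and 1786 LUC control cells and left out 224 and 84 shallower ones. BST2 was detected in 38.7% of ETV6-RUNX1 cells (36.6 to 40.9) and 48.7% of LUC control cells (46.4 to 51.1), and 3 or more UMIs were found in 3.43% and 5.43%. IFITM2 was detected in 88.2% of ETV6-RUNX1 cells (86.7 to 89.5) and 92.0% of LUC control cells (90.7 to 93.3). For both genes the intervals of the libraries do not overlap, as for 8.94% of measured genes on the lower side. ISG15 was detected in 51.5% of ETV6-RUNX1 cells and 54.3% of LUC control cells, IFI6 in 16.7% and 19.8%, and IRF1 in 18.8% and 21.1%. IRF7 was detected in 6.90% and 8.01%, and IFITM1 in 0.0489% and 0.0560%, or 1 cell each. For these 5 genes the intervals overlap. IFIT3 was again the exception, in 9.25% of ETV6-RUNX1 cells (8.03 to 10.6) and 6.22% of LUC control cells (5.14 to 7.44), which do not overlap either, as for 2.18% of measured genes on the higher side. In cells thinned to 5000 UMIs, IFIT3 was in 5.78% with ETV6-RUNX1 (4.85 to 6.83) and 4.34% in LUC control (3.46 to 5.37), which overlap. Without thinning its shares were closer, at 17.6% and 16.5%. Its log2 ratio was larger in cells thinned to 8700 UMIs, 0.61 (0.28 to 0.95, from 210 and 120 UMIs), than in all kept UMIs. Each thinning is 1 random draw, and the part of the draw in these values was not tested. Unthinned shares for BST2 were 57.8% with ETV6-RUNX1 and 75.2% in LUC control, for IFITM2 95.3% and 98.4%, for ISG15 73.4% and 82.4%, for IFI6 31.9% and 41.6%, for IRF1 35.2% and 44.3%, for IRF7 14.9% and 16.7% and for IFITM1 0.0441% and 0.160%. Median depth per kept cell was 19219 UMIs with ETV6-RUNX1 and 22535.5 in LUC control. No cell type lacking these genes was at hand, so UMIs from free RNA could not be set beside these shares.

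The spread between cells differed among the members. The Fano factor (variance over mean of the thinned counts) is 1 when UMIs fall on cells at one common rate. BST2 had 1.31 with ETV6-RUNX1 and 1.24 in LUC control, and IFITM2 had 1.29 in each. IFIT3 had 1.13 and 1.12, and IRF1 1.11 and 1.14. ISG15 had 0.996 and 1.01, so its UMIs were spread over cells about as evenly as counting alone gives, although the gene was found in more than 50% of cells. Over all measured genes the median Fano factor was 1.04 in both libraries. The factor depends on a gene's mean, so these values are a description.

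Correlations between members across cells were close to 0. Pearson's r of square-root counts in thinned cells ran from -0.040 to 0.063 over the 21 pairs of 7 members (without IFITM1) in 2043 ETV6-RUNX1 cells, and from -0.038 to 0.055 in 1786 LUC control cells. The median was 0.012 with ETV6-RUNX1 and 0.0086 in LUC control, against 0.0023 and 0.0018 over all pairs of 5649 genes at 10 CPM or more in both libraries. For those pairs, 95% of r lay between -0.047 and 0.055 with ETV6-RUNX1 and between -0.049 and 0.054 in LUC control. For comparison, genes known to be expressed in the same cells reached higher values by the same measure: CCNB1 and UBE2C, both of mitosis, had r of 0.38 with ETV6-RUNX1 and 0.37 in LUC control. CDK1 and TOP2A had 0.28 and 0.24. IGLL1 and VPREB1, the surrogate light chain genes, had 0.47 and 0.18. These last 2 genes are at higher levels than any member, IGLL1 at 1126 and 1861 CPM and VPREB1 at 718 and 1058 CPM. The cells of a library share its preparation, and r is held near 0 in sparse counts, so low values for IFIT3 or IRF7 say little. A few member pairs lay above the 95% range of all pairs. With ETV6-RUNX1 these were BST2 with IFITM2 and IRF1 with IRF7 (0.059). In LUC control, where the range ended at 0.0542, they were BST2 with IFIT3 (0.0547) and IFI6 with IFIT3 (0.0551). No pair did so in both libraries. BST2, IFITM2 and ISG15 are less sparse, and the r of their pairs was small beside the mitosis genes. BST2 with IFITM2 had r of 0.063 with ETV6-RUNX1 and 0.043 in LUC control, BST2 with ISG15 0.052 and 0.032, and ISG15 with IFITM2 0.0082 and 0.0070. A cell most often had 2 of the members detected, in 36.3% of ETV6-RUNX1 cells and 37.4% of LUC control cells, and 0 cells had 7 or 8. Cells with 5 or 6 members numbered 50 of 2043 with ETV6-RUNX1 and 57 of 1786 in LUC control.

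**Figure D3:**
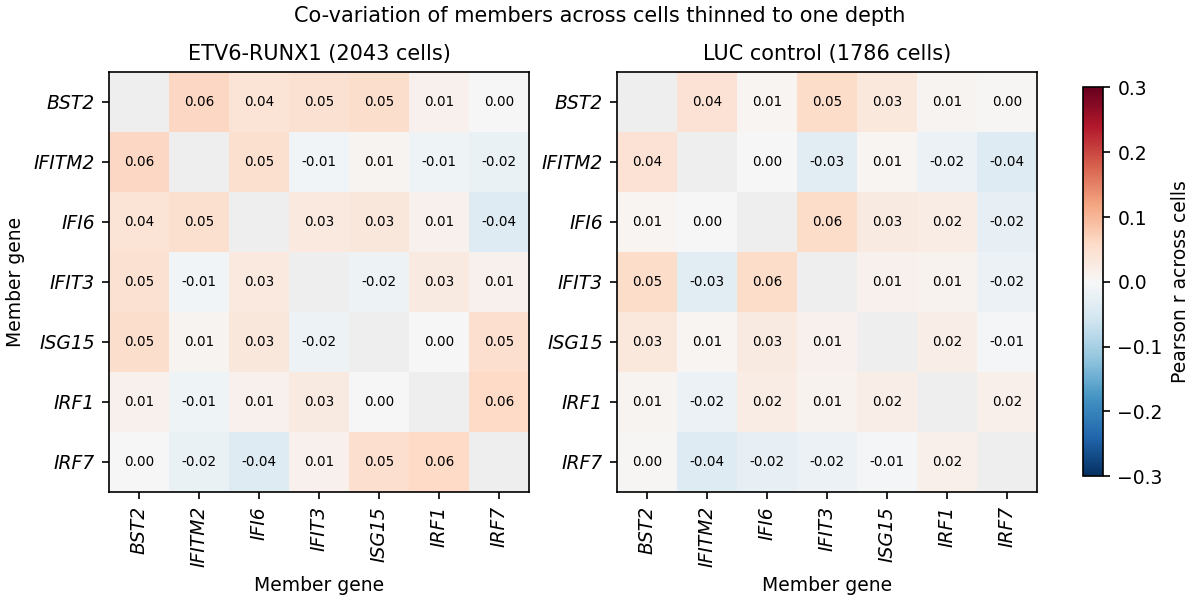
Pearson's r between members across thinned cells of the ETV6-RUNX1 library (left) and of the LUC control library (right). All values lie between -0.040 and 0.063 on a colour scale of -0.3 to 0.3.

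The genes most like each member were sought among the 5649 genes at 10 CPM or more in both libraries, which include the members BST2, IFI6, ISG15, IFITM2 and IRF1 only. None of these 5 was among the 3 genes closest to another member. By mean r over the 2 libraries, BST2 was closest to EIF1AY (0.14), the ferritin gene FTH1 (0.14) and the MHC class I light chain gene B2M (0.14). IFITM2 was closest to EIF5A (0.13), PRDX1 (0.13) and HSPB1 (0.11), and ISG15 to VPREB1 (0.094), CORO1A (0.081) and PRDX1 (0.074). B2M is also interferon-inducible. For the 4 sparser members the 3 closest genes had mean r of 0.061 to 0.078, which is no finding at this sparsity. These were OST4, ENSA and ZC3H11A for IFI6, TMSB4X, CD9 and TRIM13 for IFIT3, STMN1, CD74 and RHOH for IRF1, and SIRT6, TUBB and LPCAT3 for IRF7.

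The differences between libraries had the same sign in each called cell-cycle phase for BST2, IFITM2, IFI6, ISG15 and IFIT3. Thinned cells called G1, S and G2/M numbered 252, 632 and 1159 with ETV6-RUNX1 and 152, 624 and 1010 in LUC control, and ratios were taken from their unthinned counts. Phases were scored on both libraries pooled, which put 12.3% of ETV6-RUNX1 cells and 8.51% of LUC control cells in G1; the G1 values rest on these calls. BST2 was at 77.8 CPM with ETV6-RUNX1 and 123 CPM in LUC control in cells called G1. Its log2 ratio there was the furthest from 0 of the 7 members drawn, -0.66 (-0.88 to -0.44), and it was -0.45 (-0.59 to -0.30) in S and -0.38 (-0.47 to -0.28) in G2/M. IFITM2 had a ratio of -0.37 in cells called G1, -0.30 in S cells and -0.19 in G2/M cells. IFIT3 had 0.54 (-0.11 to 1.22) in cells called G1 and 0.26 (-0.12 to 0.63) in S cells, which both hold 0, and 0.34 (0.08 to 0.60) in G2/M cells. IFI6 had -0.11 (-0.55 to 0.34) in cells called G1 and -0.21 (-0.45 to 0.03) in S cells, which both hold 0. In G2/M cells it had -0.32 (-0.49 to -0.16). ISG15 had -0.22 (-0.45 to 0.01) in cells called G1, which holds 0. It had -0.12 (-0.25 to -0.0002) in S cells and -0.12 (-0.21 to -0.04) in G2/M cells. IRF1 had a ratio above 0 in cells called G1 (0.11, -0.36 to 0.59, from 103 and 61 UMIs). It had -0.21 in both S (-0.43 to 0.01, which holds 0) and G2/M (-0.37 to -0.06). IRF7 was on either side of 0. The difference between phases was not tested. Depth also moved with the group. In cells under 15000 UMIs, from 15000 to 25000 UMIs and over 25000 UMIs, the ratio of BST2 was -0.55, -0.49 and -0.34. That of ISG15 was -0.25, -0.13 and -0.04 (-0.14 to 0.06 in the deepest cells), and that of IFITM2 -0.39, -0.32 and -0.16. IRF1 was at -0.04 (-0.42 to 0.34), -0.22 and -0.24. The first interval holds 0 and covers the later values, so no opposite trend can be read. IRF7 was at -0.01, 0.01 and -0.14, with an interval that holds 0 in each range. IFIT3 was at 0.42, 0.29 and 0.28, with an interval that holds 0 in each range. IFI6 was at -0.37 (-0.75 to 0.01, which holds 0), -0.30 and -0.23. The part of depth in these differences was not tested.

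**Figure D4:**
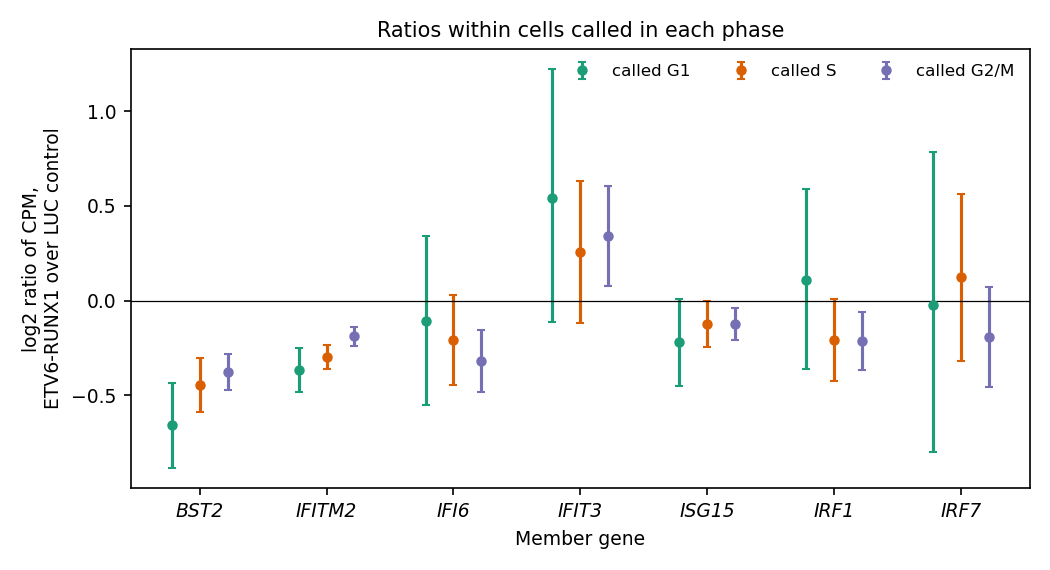
Log2 ratio of ETV6-RUNX1 over LUC control for 7 members within cells called G1, S and G2/M, with 95% counting intervals. BST2 and IFITM2 lie below 0 and IFIT3 above 0 in each phase, but the intervals of IFIT3 hold 0 in G1 and S.

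Within the ETV6-RUNX1 library, cells without a UMI of IGLL1, a surrogate light chain gene, were set beside the rest. Of the 2043 thinned cells, 208 had no IGLL1 UMI and 1835 had at least 1. ISG15 was lower in the cells without IGLL1, at 57.5 CPM against 84.6 CPM in those with it (log2 ratio -0.56, -0.86 to -0.27). Of the other measured genes, 11.1% had an interval below 0 in this split and 4.84% one above 0. The intervals of the other 7 members held 0, for example BST2 at 54.2 CPM without IGLL1 and 65.9 CPM with it (-0.28, -0.60 to 0.02). IFITM2 was at 267 CPM without IGLL1 and 268 CPM with it.

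Interferon genes themselves were at or near 0 at this depth. Of 21 interferon ligand genes that matched an entry, 20 had no UMI in either library and IFNL2 had 1 UMI with ETV6-RUNX1 and 0 in LUC control. A count of 0 allows up to 0.0683 CPM with ETV6-RUNX1 and 0.0702 CPM in LUC control. The signalling chain between receptor and gene was partly detected. IFNAR1 was at 18.5 CPM with ETV6-RUNX1 and 16.2 CPM in LUC control (0.19, 0.05 to 0.34), and IFNAR2 at 9.03 and 8.49 CPM (0.09, -0.12 to 0.30). The kinase gene JAK1 was higher with ETV6-RUNX1, at 46.2 against 36.1 CPM (0.36, 0.26 to 0.45). STAT2 was at 4.16 CPM with ETV6-RUNX1 and 3.23 CPM in LUC control (0.37, 0.04 to 0.70). IRF9, which completes the ISRE-binding complex, was low, at 0.797 CPM with ETV6-RUNX1 and 0.982 CPM in LUC control. The receptor chain IL10RB, shared with interferon lambda, was at 13.9 and 13.1 CPM (0.09). All 4 measured genes of the 13 in the receptor and signalling list had ratios above 0 (median 0.14), against 36.2% of all measured genes, and JAK1 was past the smaller threshold.

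The other interferon-stimulated genes lay on both sides of 0. Of 46 listed, 18 were at 10 CPM or more, and 7 of these had ratios above 0 and 11 below, with a median of -0.05. None of the 18 passed the smaller threshold. The 3 furthest from 0 were the DNA sensor IFI16, at 94.0 CPM with ETV6-RUNX1 and 78.8 CPM in LUC control (0.25, 0.19 to 0.32), the STAT-interacting protein NMI (50.9 and 60.1 CPM, -0.24) and LY6E (48.7 and 57.0 CPM, -0.22). Of 16 genes linked to interferon gamma, 6 were measured, with a median of -0.07. PSMB8, a subunit of the immunoproteasome, was the 1 of them past the smaller threshold, at 124 CPM with ETV6-RUNX1 and 169 CPM in LUC control (-0.45, -0.50 to -0.40). The peptide transporter gene TAP1 was at 15.8 and 18.6 CPM (-0.24) and the GTPase gene GBP4 at 23.3 and 21.7 CPM (0.10).

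The factors, sensors and regulators around the members differed by gene. Of the 7 other IRF genes 3 were measured, all with ratios above 0, against 36.2% of all measured genes. IRF4 was at 26.2 CPM with ETV6-RUNX1 and 18.7 CPM in LUC control (0.48, 0.35 to 0.62). The others were IRF2 (0.18, 0.06 to 0.31) and IRF3 (0.14, 0.04 to 0.24). IRF4 was the 1 of these past the smaller threshold. Below the floor, IRF8 (0.728 CPM with ETV6-RUNX1 and 0.982 CPM in LUC control, -0.43, -1.14 to 0.27) and IRF9 (-0.30, -0.99 to 0.38) had ratios below 0 with intervals that hold 0, and IRF5 had 1 and 2 UMIs. Among 18 sensors and adaptors, 4 were measured and 0 passed the smaller threshold, with TRAF3 (-0.19), MYD88 (-0.14) and IRAK1 (-0.02) furthest from 0. TRAF3 passed the floor only through LUC control (9.06 CPM with ETV6-RUNX1 and 10.4 CPM in LUC control). Among the sensors below the floor, 4 had an interval below 0 and are named after their values were seen. The share of all genes below the floor with such an interval was not computed, so this count has no background. TMEM173, the DNA-sensing adaptor STING, had a ratio of -1.12 (-1.65 to -0.60, from 46 and 97 UMIs). The RNA sensor IFIH1 had -0.46 (-0.79 to -0.14), DHX58 -0.69 (-1.35 to -0.05) and the kinase gene IKBKE -0.31 (-0.60 to -0.03). Genes below the floor in the other lists went both ways, and these too are named after their values were seen. Intervals above 0 included those of ICAM1 (0.74, 0.41 to 1.07), UBA7 (0.32, 0.04 to 0.60) and TYK2 (0.24, 0.02 to 0.45). Those of the negative regulators SOCS1 (-0.76, -1.21 to -0.31) and CISH (-0.45, -0.89 to -0.01) lay below 0. Of 6 genes of ISG15 attachment, 3 were measured: ARIH1 (0.22), HERC5 (0.11) and UBE2L6 (-0.06). Among 12 negative regulators, 7 were measured, and the phosphatase gene PTPN6 was past the smaller threshold, at 45.8 CPM with ETV6-RUNX1 and 59.9 CPM in LUC control (-0.39, -0.47 to -0.30). PTPN1 (0.21) and IRF2 followed. Of 10 NF-kappa-B genes, 5 were measured with a median of -0.06, led by NFKB1 (-0.26, -0.43 to -0.10), NFKBIA (-0.07) and TNFAIP3 (-0.06).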

How the data were processed

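Per the labels' protocols, poly-A RNA of single cells was barcoded with a cell barcode and a UMI on the 10X system after depletion of dead cells. The deposited matrices hold raw UMI counts, made by the authors with Cell Ranger 3.0.2 on hg19, per the submitters' processing notes. Multi-mapped reads and strand are not described there.

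UMIs were summed per library over kept cells and scaled to CPM, and the log2 ratio was given with an exact 95% interval for 2 Poisson counts (scipy 1.17.1). It leaves out spread between cells, cultures and preparations. Measured genes are those that reach 10 CPM in either library. Phases were called with scanpy 1.11.5 on cells of both libraries pooled, thinned to 8700 UMIs. Doublets were left in; Scrublet called 14 of the kept cells with ETV6-RUNX1 and 16 in LUC control. TMM factors came from edgeR 4.0.16. The ratio and interval were tried on simulated Poisson sums only. Such sums hold counting error alone, so they cannot show how the interval fares with spread between cells or libraries.

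Shown were the 8 members, up to 3 measured genes per list with the largest absolute ratio, 6 fixed pathway genes, of which 1 is not reported here, and the 3 genes most like each member. The members and the lists were chosen with earlier results of these data known. Promoters are RefSeq's, on GRCh38.p14, and were matched by symbol; no coordinates were converted between builds.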

Additional observations from a re-analysis of the deposited data

How the results depend on the processing

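BST2, IFI6, IFITM2, ISG15 and IFIT3 kept their sign under all 15 alternatives that recomputed their ratios. Under the 3 scalings among these, no sign could change. BST2 ran from -0.66 to -0.34, IFITM2 from -0.39 to -0.16 and IFIT3 from 0.26 to 0.61. IFI6 ran from -0.37 to -0.11 and ISG15 from -0.25 to -0.04. The sizes were less stable: IFITM2 fell outside its main counting interval in 11 of the 15 and BST2 in 5. IRF1 kept it under 14 and turned to 0.11 in cells called G1. IRF7 was on either side of 0, and IFITM1 gave a ratio under 11 alternatives only. The members' median was -0.11 in cells called G1 and stayed between -0.26 and -0.14 elsewhere. Members at least 1.5-fold different numbered 0 in the report. There was 1 higher in thinned cells (IFIT3), 1 lower in cells called G1 (BST2), and 1 higher and 1 lower at a log2 size of 0.32. The 3 depth ranges, and the medians without IFITM1 or over measured members only, were chosen after seeing the data.

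Over all measured genes, 11 were at least 1.5-fold higher. TMM, median-of-ratios and totals that leave out ribosomal protein and MT- genes each gave 17, and equal weight per cell gave 18. Thinning gave 21, G1 cells alone 163, S cells alone 25 and the cells under 15000 UMIs 113. Lowering the floor to 1 CPM gave 139 and raising it to 50 CPM gave 1. Sizes of 2-fold and of 0.32 on the log2 scale gave 0 and 98. At least 1.5-fold lower were 39 genes, against 232 for G1 cells alone, 84 for S cells alone, 201 under 15000 UMIs and 61 between 15000 and 25000 UMIs. The lower floor gave 232, the higher floor 10, and the sizes of 2-fold and 0.32 gave 5 and 197. Floors and sizes change counts by construction; otherwise the cause was not tested. The median r between members stayed between -0.0085 and 0.032 in either library. No paired analysis was possible because each group has 1 library. IFITM1 rests on 1 and 3 UMIs.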

Other observations

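The IFIT genes, which form a cluster and encode RNA-binding antiviral proteins, did not share a direction. These genes were picked out after their values were seen. IFIT1 was at 1.68 CPM with ETV6-RUNX1 and 2.90 CPM in LUC control, from 74 and 124 UMIs, a log2 ratio of -0.78 (-1.22 to -0.36). Its partner gene IFIT3 had a ratio of 0.35, with an interval that does not overlap that of IFIT1. IFIT2 (97 and 76 UMIs) had a ratio of 0.31 (-0.14 to 0.77) and IFIT5 (149 and 172 UMIs) of -0.25 (-0.57 to 0.08), both with intervals that hold 0.

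Of the 28 other interferon-stimulated genes below 10 CPM in both libraries, the interval lay below 0 for IFIT1 and IFI44 and above 0 for ISG20. The same shares over all genes below 10 CPM were not computed. ISG20, an exonuclease that degrades RNA, was at 6.21 CPM with ETV6-RUNX1 and 3.69 CPM in LUC control, from 273 and 158 UMIs (0.75, 0.46 to 1.04). Summed over the 28 genes, the level was 81.9 CPM with ETV6-RUNX1 and 82.5 CPM in LUC control. The interferon gamma receptor chain IFNGR1 was at 7.40 and 9.003 CPM (-0.28, -0.50 to -0.07), while its partner chain IFNGR2 had 2 UMIs with ETV6-RUNX1 and 0 in LUC control.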
